A study of Homo sapiens with 6 samples.

Results

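Ribosomes are built in the nucleolus. There RNA polymerase I transcribes the ribosomal RNA precursor, small nucleolar ribonucleoproteins (snoRNPs) guide its modification, and a large set of assembly factors folds, trims and packs it with ribosomal proteins into the small and the large subunit. Many of the genes for these factors are known targets of the transcription factor MYC, and their transcripts are abundant in growing cancer cells. The 50 genes described here cover these steps: nucleolar scaffold proteins, RNA polymerase I and its factors, box C/D and box H/ACA snoRNP proteins, the small subunit processome and large subunit assembly. They were given as a list of symbols, by function. Each of the 50 had a row among the 18268 rows of the deposited table, 46 of them in a row of their own and 4 in a row that joins the symbols of overlapping or neighbouring genes (CHD4;NOP2, WDR74;TEX54, RRS1;VXN;ADHFE1;AC009879 and PPAN;PPAN-P2RY11;P2RY11).

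Knockout cells of LINC00901, a gene for a long non-coding RNA, gave 3 libraries (KO 1 to 3), and cells labelled as vector control gave another 3, titled LCV2 (vector control 1 to 3). All came from MIA PaCa-2. This is an established human pancreatic cancer line, labelled as epithelial and grown here with fetal bovine and horse serum. Total RNA was sequenced, and the values are FPKM (fragment counts scaled to transcript length and library size). Neither separate cultures nor clones are named, so p-values measure the spread between these libraries, which may be technical.

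The FPKM summed to between 123107 and 134389 per library. LINC00901 had no row, so the knockout could not be checked here and each direction rests on the labels. Of 6 epithelial markers, KRT8 (joined with KRT78), KRT18 and KRT19 were tested, with KRT18 at 28.78 to 58.00 FPKM in the KO libraries and 70.41 to 79.42 in the vector controls, while EPCAM, CDH1 and KRT7 did not exceed 0.14 FPKM. EPCAM, CDH1 and KRT7 were not tested, and KRT8, KRT18 and KRT19 were not called (limma adjusted p of 0.145 or more). The summed FPKM of the epithelial list was 51.12 to 97.44 in the KO libraries and 114.60 to 136.96 in the vector controls, so it was lower in every KO library. KRT8 separated the groups as KRT18 did. KRT19 did not, with 25.11 FPKM in KO 1 against 17.46 in vector control 1. PTPRC and CD3E (leukocytes), VWF and KDR (endothelium) and DCN (fibroblasts) were listed at 0 in all 6 libraries. CDH5 (endothelium) had 0.33, 0.17 and 0.14 FPKM in vector control 1 to 3, and PECAM1 (endothelium) 0.01 in vector control 1. LUM (fibroblasts) had 0.11, 0.17 and 0.07 FPKM in vector control 1 to 3. CDH5, PECAM1 and LUM were listed at 0 in every KO library. The lysozyme gene LYZ, also on the leukocyte list, had 1.45, 1.83 and 1.2 FPKM in KO 1 to 3 and was listed at 0 in all vector controls. It was called higher in KO cells (limma adjusted p = 0.00799). However, rows needed at least 1 FPKM in at least 3 libraries to be tested, and LYZ met this only through its KO libraries. Its values were just above that limit and an exact 0 can be an unmeasured value, so the call carries little weight. On the same list CD14 was listed at 0 in all KO libraries and had 0, 0.40 and 0.68 FPKM in vector control 1 to 3, and the joined row of CD68, EIF4A1 and SENP3 had a log2 fold change of -0.21. Of the 6 fibroblast markers 4 were tested, among them the collagen gene COL1A2 at 50.63 to 56.18 FPKM in the KO libraries and 24.72 to 35.84 in the vector controls, and COL3A1, another collagen gene, at 16.46 to 41.24 FPKM in the KO libraries and 43.10 to 62.02 in the vector controls. Neither was called (limma adjusted p = 0.119 for COL1A2 and 0.164 for COL3A1), and the groups separated in opposite directions. COL1A1 had 1.05 to 3.95 FPKM in the KO libraries and 0.96 to 1.67 in the vector controls. The joined row of PDGFRA had 1.85 to 2.38 FPKM in the KO libraries and 1.73 to 2.54 in the vector controls. The summed FPKM of the fibroblast list ran from 70.52 to 98.62 in the KO libraries and from 71.43 to 100.79 in the vector controls. The part of these markers in the results below was not tested. KO 1 and vector control 1 stood apart from the other libraries of their groups: the share of the FPKM sum held by replication-dependent histone genes was 3.03%, 5.21% and 5.25% in KO 1 to 3, against 6.28%, 2.83% and 3.29% in vector control 1 to 3. Across genes, log2(FPKM + 1) of vector control 1 correlated more closely with KO 2 and 3 (Pearson's r of 0.925 and 0.932) than with vector control 2 and 3 (0.904 and 0.906). KO 1 correlated at 0.933 and 0.935 with KO 2 and 3, and at 0.900, 0.920 and 0.921 with vector control 1 to 3. Genes are not independent replicates, and whether the label of a library plays a part was not tested. Results are therefore also given without these 2 libraries.

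None of the 50 genes passed the test between KO and vector control cells, although most lay on the lower side in KO cells. Each row was tested with limma on log2(FPKM + 1), over 9624 rows with at least 1 FPKM in at least 3 libraries, and a row was called where its p, adjusted by Benjamini and Hochberg's method, was below 0.05. All 50 members passed the filter, 0 were called, and 1.35% of all tested rows were called (130 rows, of which 0.509% of all were higher and 0.842% lower in KO cells). The smallest adjusted p among the members was 0.0921. At an unadjusted limma p below 0.05 there were 4 members, all lower in KO cells: DDX10, POLR1B, NPM1 and NHP2. At this level 17.5% of all tested rows passed, 11.5% as higher and 6% as lower in KO cells. The median log2 fold change was -0.15 over the members and 0.08 over all tested rows, with 32 members below 0 and 18 above. In 11 members, or 22%, the 3 KO libraries lay below all 3 vector controls, against 8.35% of all tested rows. In 0 members did they lie above, against 15.4% of all tested rows. These 11 were NPM1, TCOF1, POLR1B, FBL, NHP2, WDR43, DDX10, BOP1, GNL2, GNL3 and DDX21. In the other polymerase I, subunit assembly, exosome and ribosomal protein lists described further down, the share below all controls was 11.4% to 16.7%. A share above that of all tested rows was therefore not particular to the members.

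**Figure D1:**
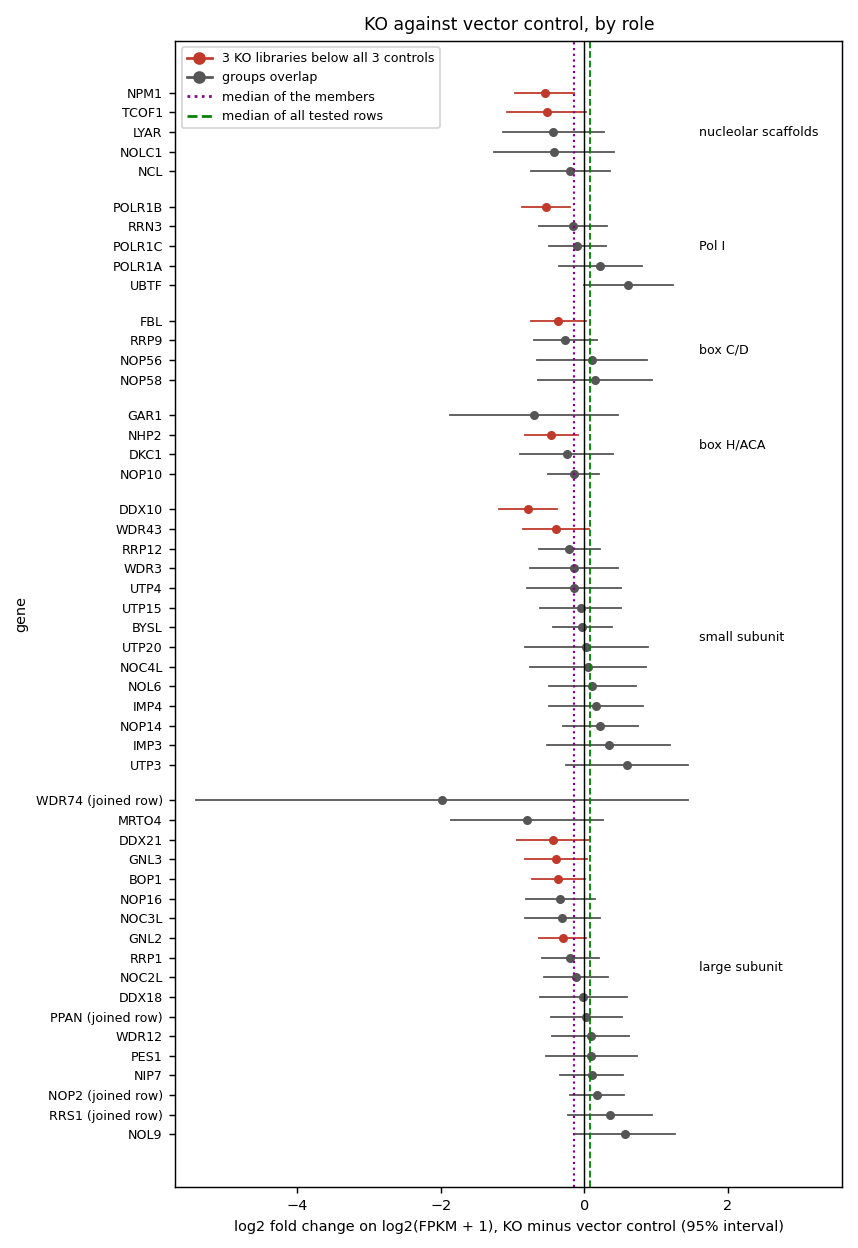
Log2 fold change of each member (KO minus vector control, on log2(FPKM + 1)), with its 95% interval from limma, grouped by role. Red marks the 11 members whose 3 KO libraries lay below all 3 vector controls, and the vertical lines mark the median of the members (-0.15) and of all tested rows (0.08). The joined row of WDR74 has by far the widest interval.

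The nucleolar scaffold and phosphoprotein genes were the role group with all 5 members below 0, at log2 fold changes of -0.55 to -0.19. NPM1 encodes nucleophosmin, an abundant nucleolar chaperone of ribosome assembly. It stood at 192.15, 196.86 and 199.49 FPKM in KO 1 to 3, against 360.20, 251.82 and 262.44 FPKM in vector control 1 to 3. The KO libraries lay close together and below all controls, and vector control 1 was the highest (log2 fold change -0.55, SE 0.17, limma adjusted p = 0.195). NPM1 has many processed pseudogenes, so its value depends on how reads shared with them were assigned. NCL, the gene of nucleolin, an RNA-binding protein of the nucleolus, had 38.84, 68.42 and 68.71 FPKM in KO 1 to 3, against 63.60, 66.83 and 64.78 FPKM in the vector controls. Only KO 1 departed from the rest, and the groups overlapped (log2 fold change -0.19, 95% interval -0.75 to 0.36, limma adjusted p = 0.713), and without KO 1 the log2 fold change was 0.07.

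TCOF1 encodes treacle, which links RNA polymerase I transcription to rRNA processing. It had 5.25, 9.72 and 8.90 FPKM in KO 1 to 3, against 13.27, 10.76 and 10.71 FPKM in the vector controls. The groups did not overlap, but KO 1 was far below KO 2 and 3 (log2 fold change -0.52, SE 0.23, limma adjusted p = 0.304). NOLC1, which encodes the snoRNP chaperone Nopp140, and LYAR, a nucleolar zinc finger gene, showed the same low KO 1 and high vector control 1. NOLC1 had 8.61 FPKM in KO 1 and 28.61 in vector control 1, and LYAR 3.21 and 9.87, with the other 4 libraries in between for both genes.

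The RNA polymerase I genes did not move as a unit. POLR1B encodes the second-largest subunit of the polymerase. It stood at 17.06, 15.76 and 15.67 FPKM in KO 1 to 3, against 21.22, 25.25 and 25.06 FPKM in vector control 1 to 3. The KO libraries were all lower, and here vector control 1 was the lowest control (log2 fold change -0.53, SE 0.14, limma adjusted p = 0.147). POLR1A encodes the largest subunit and had 8.34, 11.32 and 10.53 FPKM in the KO libraries, against 12.30, 6.80 and 7.02 FPKM in the vector controls. Vector control 1 was above and vector control 2 and 3 below every KO library, so the groups overlapped (log2 fold change 0.22, 95% interval -0.35 to 0.80, limma adjusted p = 0.681).

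UBTF, the gene of the upstream binding factor that opens ribosomal DNA for transcription, had the highest fold change of all members. It had 8.98, 14.65 and 11.97 FPKM in KO 1 to 3, against 10.52, 5.82 and 6.14 FPKM in vector control 1 to 3. KO 2 and 3 lay above all controls, but KO 1 lay below vector control 1 (log2 fold change 0.62, SE 0.26, limma adjusted p = 0.285). In GENCODE 29 an exon of UBTF overlaps genes on the other strand, and since the use of strand is not stated, reads of these genes cannot be told apart. RRN3, the initiation factor that recruits the polymerase, and POLR1C, a subunit shared with RNA polymerase III, had log2 fold changes of -0.15 and -0.10.

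Among the box C/D snoRNP genes, whose particles guide 2′-O-methylation of rRNA, only FBL separated the groups. FBL encodes fibrillarin, the methyltransferase. It had 44.90, 54.81 and 61.57 FPKM in KO 1 to 3, against 65.29, 66.94 and 74.48 FPKM in the vector controls. The highest KO library was just below the lowest control (log2 fold change -0.36, SE 0.16, limma adjusted p = 0.309). NOP56 and NOP58, the core proteins of the particle, and RRP9, a component of the U3 snoRNP, overlapped between groups, with log2 fold changes of 0.11, 0.15 and -0.26. NOP56 ranged over the libraries from 18.30 FPKM in KO 1 to 37.54 in vector control 1.

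All 4 box H/ACA snoRNP genes, whose particles convert uridine to pseudouridine, lay below 0. NHP2, a core protein of the particle, had 24.52, 22.35 and 20.64 FPKM in KO 1 to 3, against 35.82, 27.90 and 30.51 FPKM in the vector controls. The groups did not overlap (log2 fold change -0.46, SE 0.16, limma adjusted p = 0.211). DKC1 encodes dyskerin, the pseudouridine synthase, and had 17.76, 28.84 and 27.44 FPKM in KO 1 to 3, against 41.40, 23.66 and 24.34 FPKM in vector control 1 to 3. The lowest and highest values were KO 1 and vector control 1, and the other 4 libraries lay within 23.66 to 28.84 FPKM (log2 fold change -0.24, 95% interval -0.90 to 0.41, limma adjusted p = 0.693). Without KO 1 and vector control 1 the log2 fold change of DKC1 was 0.22.

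GAR1, another core protein gene of the particle, had the third-widest range of all members on the log2(FPKM + 1) scale. It stood at 1.04, 6.89 and 5.32 FPKM in KO 1 to 3, against 9.32, 5.43 and 5.52 FPKM in vector control 1 to 3. KO 1 alone was near 1 FPKM (log2 fold change -0.70, SE 0.50, limma adjusted p = 0.511), and without KO 1 and vector control 1 the log2 fold change was 0.13. NOP10 varied least of all 50 members, from 43.74 FPKM in KO 1 to 57.41 in vector control 3, a ratio of 1.31.

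The 14 small subunit genes were balanced around 0, with 7 above and 7 below and a median log2 fold change of 0.00325. DDX10, an RNA helicase gene, had the smallest adjusted p of all members. It had 5.50, 3.78 and 4.44 FPKM in KO 1 to 3, against 9.37, 8.08 and 8.15 FPKM in the vector controls. Each KO library was well below every control (log2 fold change -0.78, SE 0.17, limma adjusted p = 0.0921), and the KO mean was 0.536 times the control mean. WDR43, a subunit gene of the UTP-A complex that binds the nascent pre-rRNA, had 5.94, 6.55 and 5.19 FPKM in KO 1 to 3, against 10.54, 7.07 and 6.87 FPKM in the vector controls. The groups did not overlap, but KO 2 and vector control 3 were close (log2 fold change -0.39, SE 0.20, limma adjusted p = 0.351).

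UTP3 (also known as SAS10) and IMP3, a protein gene of the U3 snoRNP, were on the higher side. UTP3 had 7.54, 11.47 and 9.13 FPKM in KO 1 to 3, against 11.20, 4.14 and 3.97 FPKM in vector control 1 to 3. Vector control 2 and 3 were far below the KO libraries, whereas vector control 1 lay among them (log2 fold change 0.60, SE 0.36, limma adjusted p = 0.434). IMP3 had 9.52, 10.08 and 10.85 FPKM in KO 1 to 3, against 13.58, 8.48 and 3.93 FPKM in the vector controls. Its controls spanned more than its KO libraries (log2 fold change 0.34, SE 0.36, limma adjusted p = 0.675). UTP20, a large scaffold protein gene of the processome, had 5.35, 7.17 and 7.69 FPKM in KO 1 to 3, against 12.75, 4.45 and 4.65 FPKM in the vector controls, with a log2 fold change of 0.03. The other 9 small subunit genes (NOP14, NOL6, NOC4L, WDR3, UTP4, UTP15, RRP12, BYSL and IMP4) had log2 fold changes between -0.21 and 0.22.

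Among the 18 genes placed under large subunit assembly, 4 (22.2%) had KO libraries below all controls, against 8.35% of all tested rows. The role groups were assigned for this report, and some members act in more than 1 step. GNL3, the gene of the nucleolar GTPase nucleostemin, had 18.77, 19.06 and 18.97 FPKM in KO 1 to 3, against 32.39, 21.98 and 22.36 FPKM in the vector controls (log2 fold change -0.39, SE 0.18, limma adjusted p = 0.317). Its KO libraries were nearly equal, and vector control 1 was well above the other controls. DDX21, an RNA helicase gene, had 39.98, 41.78 and 46.75 FPKM in KO 1 to 3, against 79.70, 49.20 and 49.91 FPKM in the vector controls (log2 fold change -0.43, SE 0.21, limma adjusted p = 0.344). KO 3 was just below vector control 2, and vector control 1 was again the highest.

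GNL2, a GTPase gene of large subunit assembly, had 7.78, 7.45 and 6.79 FPKM in KO 1 to 3, against 9.78, 9.09 and 8.94 FPKM in the vector controls (log2 fold change -0.30, SE 0.14, limma adjusted p = 0.317). Both groups were tight for this gene. BOP1, which encodes a scaffold of the PeBoW complex with PES1 and WDR12, had 14.50, 14.35 and 16.74 FPKM in KO 1 to 3, against 21.93, 16.85 and 20.74 FPKM in the vector controls (log2 fold change -0.36, SE 0.16, limma adjusted p = 0.302). KO 3 and vector control 2 almost touched. The partners of BOP1 did not separate the groups, with log2 fold changes of 0.10 for PES1 and 0.09 for WDR12.

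MRTO4 and NOL9 were the large subunit genes at the ends of the range apart from joined rows. MRTO4 encodes a protein related to the ribosomal stalk protein P0, and had 7.31, 10.59 and 3.62 FPKM in KO 1 to 3, against 22.59, 7.68 and 10.33 FPKM in vector control 1 to 3. Vector control 1 and KO 3 were the extremes and the groups overlapped (log2 fold change -0.79, SE 0.45, limma adjusted p = 0.405). NOL9, a polynucleotide kinase gene of pre-rRNA processing, had 13.10, 16.15 and 16.43 FPKM in KO 1 to 3, against 16.83, 7.39 and 7.74 FPKM in vector control 1 to 3. As for UTP3, vector control 2 and 3 were low and vector control 1 was at the level of the KO libraries (log2 fold change 0.56, SE 0.30, limma adjusted p = 0.380).

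The joined row of WDR74 and TEX54 behaved unlike every other member. It had 534.02, 272.22 and 5.90 FPKM in KO 1 to 3, against 392.97, 353.06 and 442.73 FPKM in the vector controls, a ratio of 90.5 between the highest and lowest library. KO 3 was by far the lowest, KO 2 also lay below every vector control, and KO 1 was the highest library. The log2 fold change of -1.98 had an SE of 1.46 (limma adjusted p = 0.525) and was -0.05 without KO 3. WDR74 encodes a large subunit assembly factor, and the next most abundant member, NPM1, averaged 244 FPKM over the 6 libraries. In GENCODE 29 the snRNA gene RNU2-2P overlaps an exon of WDR74, so reads of that small RNA and of WDR74 cannot be told apart in this row. The row of RRS1, a 5S particle assembly factor, with VXN, ADHFE1 and AC009879 was the least abundant. It had 1.53, 2.31 and 1.95 FPKM in KO 1 to 3, against 2.27, 0.99 and 0.79 FPKM in the vector controls (log2 fold change 0.36, SE 0.25, limma adjusted p = 0.493). The remaining 10 large subunit genes (NOP2, NOP16, NOC2L, NOC3L, PES1, WDR12, RRP1, PPAN, DDX18 and NIP7) had log2 fold changes between -0.33 and 0.18.

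**Figure D2:**
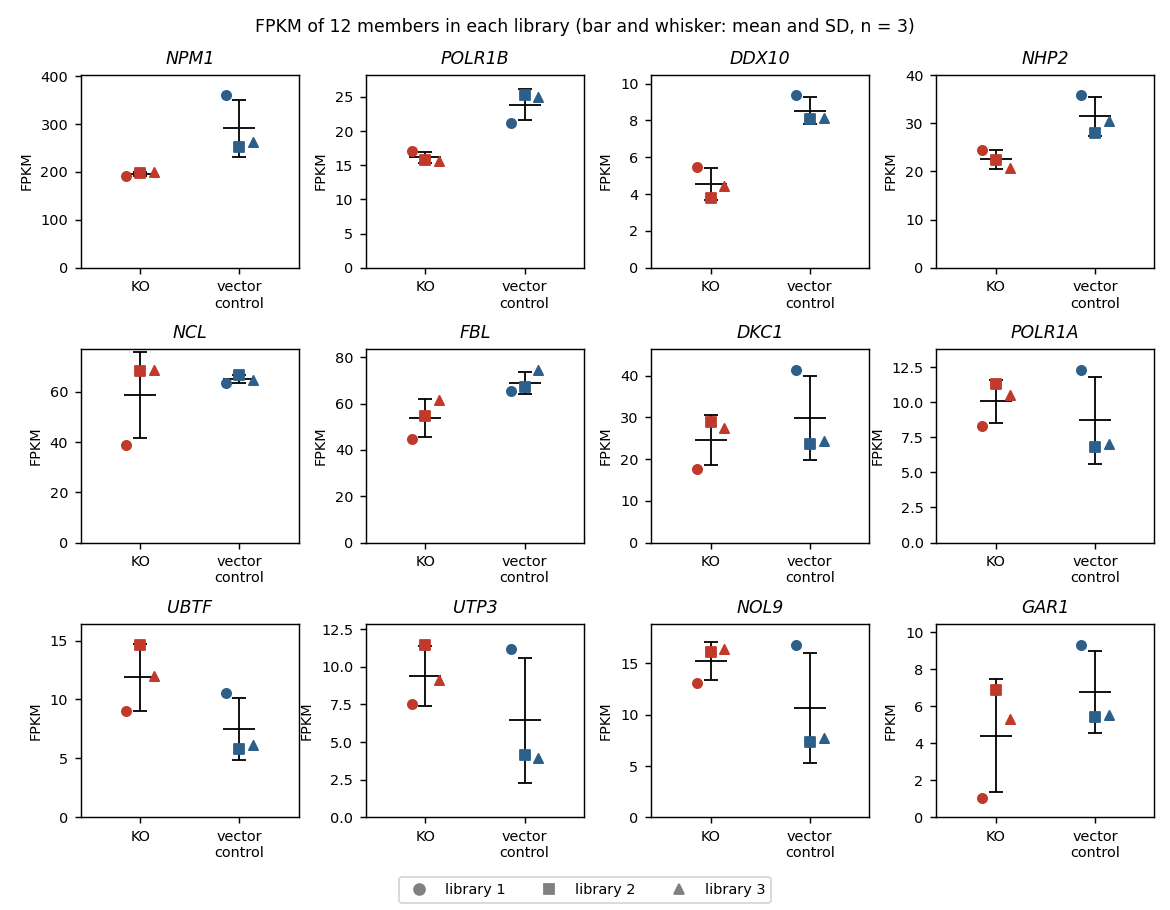
FPKM of 12 members in each library, with KO left of vector control in each panel, and the mean and SD of 3 libraries as a bar with whiskers. NPM1, POLR1B, DDX10, NHP2 and FBL separate the groups. In UBTF, UTP3 and NOL9 vector control 1 lies with the KO libraries, and in NCL and GAR1 KO 1 alone is low.

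The clearest pattern in these genes ran between single libraries rather than between the groups. KO 1 had the lowest value in 21 of the 50 members (42%), against 15.8% of all tested rows. Vector control 1 had the highest value in 36 members (72%) and the lowest in 0, whereas over all tested rows it was highest in 23.5% and lowest in 22.6%. KO 1 lay below both other KO libraries in 38 members (76%, against 41.8% of all tested rows), and vector control 1 exceeded both other controls in 42 (84%, against 49.9%). The median member was 0.827 times as high in KO 1 as in the mean of KO 2 and 3, and 1.55 times as high in vector control 1 as in the mean of vector control 2 and 3. Over all tested rows these medians were 0.988 and 1.06. Rows of 1 library share its normalization, so these shares describe the libraries and carry no test.

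**Figure D3:**
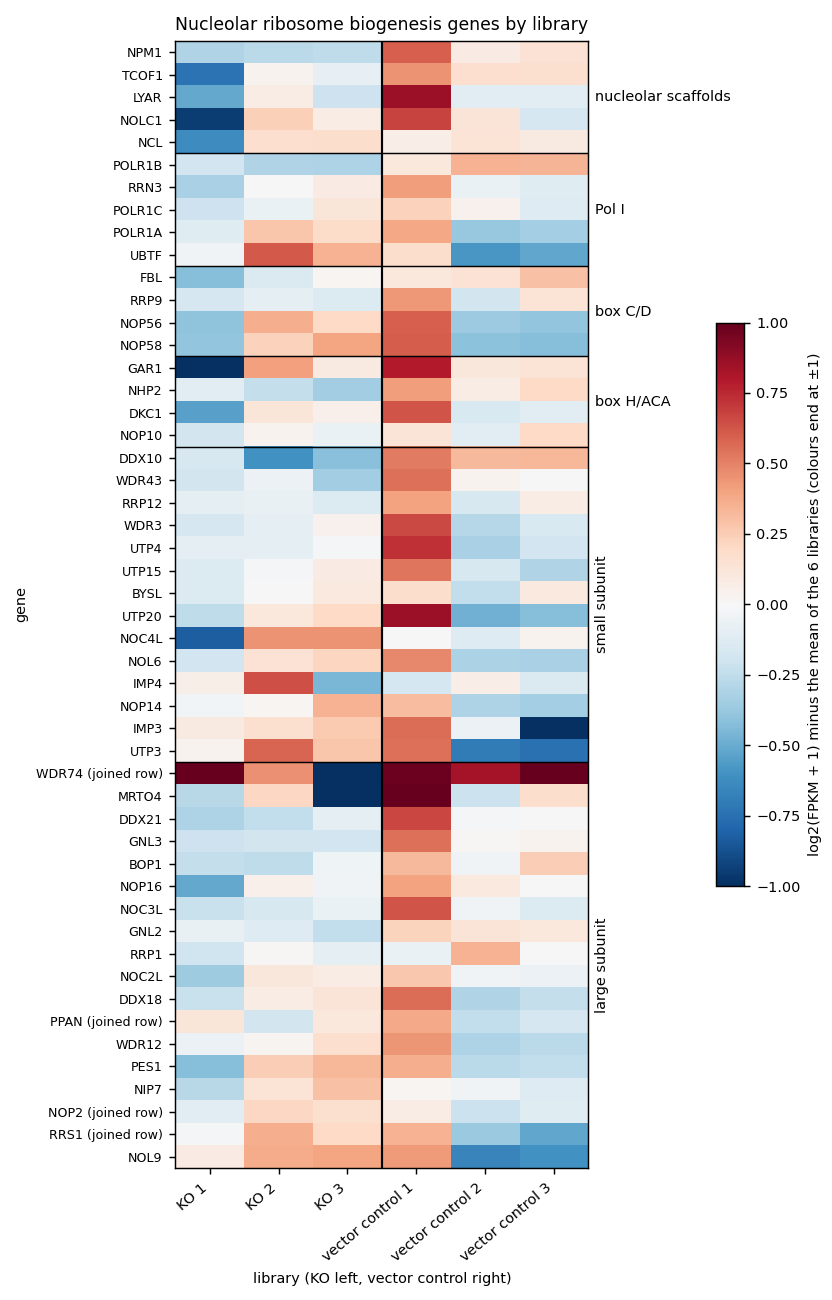
Log2(FPKM + 1) of each member in each library minus the mean of the 6 libraries, grouped by role, with the 3 KO libraries left of the line and the 3 vector controls right of it. The column of KO 1 is blue in most rows, and KO 1 is the lowest library for 21 of 50 members. The column of vector control 1 is red in most rows, and vector control 1 is the highest library for 36.

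The ordering differed in degree between the role groups. KO 1 was the lowest library for all 5 scaffold genes and 3 of 4 box H/ACA genes, but for only 1 of 14 small subunit genes, where vector control 2 and 3 were the lowest for 5 genes each. Vector control 1 was the highest library for 4 of 5 scaffold genes, 3 of 5 polymerase I genes, 3 of 4 box C/D genes, 3 of 4 box H/ACA genes, 10 of 14 small subunit genes and 13 of 18 large subunit genes. In 10 members a KO library was the highest: NCL, UBTF, NOP14, NOC4L, UTP3, IMP4, NOP2, WDR74, RRS1 and NIP7.

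Genes of the G1/S step of the cell cycle were likewise lowest in KO 1 and highest in vector control 1. The median of 24 tested G1/S genes, as log2(FPKM + 1) minus the row mean, was -0.79, 0.40 and 0.36 in KO 1 to 3, against 0.62, -0.34 and -0.31 in vector control 1 to 3. The members had medians of -0.20, 0.04 and 0.07 in KO 1 to 3 and of 0.43, -0.11 and -0.12 in vector control 1 to 3. The replication gene PCNA had 44.99, 165.77 and 158.72 FPKM in KO 1 to 3, against 187.91, 56.70 and 56.88 FPKM in the vector controls. The part of cell cycle state in the values of the members was not tested.

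Without vector control 1 alone, limma called UBTF (log2 fold change 0.86, adjusted p = 0.0492), NOL9 (0.92, adjusted p = 0.0192) and UTP3 (1.02, adjusted p = 0.0263) higher in KO cells, where 8.74% of all tested rows were called higher. It called DDX10 (-0.72, adjusted p = 0.0432) and POLR1B (-0.61, adjusted p = 0.0263) lower, where 5.07% were called lower and 13.8% in either direction.

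With KO 1 and vector control 1 left out, a choice made after seeing the data, the test gave other calls for the same genes. Then 15 members were called higher and 4 lower in KO cells, where 37.1% of all tested rows were called, 23.5% higher and 13.6% lower. The 4 lower were DDX10 (log2 fold change -0.84, limma adjusted p = 0.00954), POLR1B (-0.65, adjusted p = 0.00757), NHP2 (-0.42, adjusted p = 0.0271) and NPM1 (-0.37, adjusted p = 0.0176). The 15 higher were UTP3, UBTF, NOL9, NOP58, RRS1, NOP56, UTP20, POLR1A, PES1, NOL6, NOP14, NOC4L, WDR12, DDX18 and NOP2, with log2 fold changes from 0.35 for the joined row of NOP2 to 1.15 for UTP3. The median over the members turned to 0.13, beside 0.10 over all tested rows. KO 2 and 3 lay above vector control 2 and 3 in 48% of members and 44.7% of all tested rows, and below in 24% and 28.6%, so the members were close to the background in this comparison.

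KO 2 and 3 against vector control 1 gave the opposite balance, with both KO libraries lower in 40 members (80%, against 37.5% of all tested rows). The median log2 difference between the mean of KO 2 and 3 and vector control 1, the 3 libraries with the higher histone shares, was -0.40 over the members and 0.04 over all tested rows. Between KO 1 and the mean of vector control 2 and 3, the 3 libraries with the lower shares, it was -0.17 over the members and 0.09 over all tested rows, with 31 members below 0 and 19 above. Neither difference has replicates on both sides. With the histone share as a covariate, limma called 3 members lower and 0 higher, beside 2.85% of all tested rows called lower, 3.5% higher and 6.35% in either direction. The 3 were NPM1 (log2 fold change -0.59, adjusted p = 0.0371), POLR1B (-0.51, adjusted p = 0.0390) and DDX10 (-0.78, adjusted p = 0.0447). Robust limma with array weights called 13 members higher and 5 lower, among 41.8% of all tested rows called, 27% higher and 14.8% lower. Its 5 lower members were DDX10, POLR1B, NHP2, NPM1 and GNL2.

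Other assembly genes of both subunits were also low in KO 1 and high in vector control 1. The median of 44 other small subunit processome genes was -0.18 in KO 1 and 0.33 in vector control 1, and that of 48 other large subunit assembly genes was -0.13 in KO 1 and 0.36 in vector control 1. Between the groups, 0 of these 92 were called, and the median log2 fold changes were -0.07 and -0.03. The highest was KRR1, a small subunit processome gene, with 4.46 ± 0.35 FPKM in KO and 2.37 ± 0.70 in vector control cells (SD, n = 3 each; log2 fold change 0.71, limma adjusted p = 0.138). The lowest were FCF1 (-0.72, SE 0.32), which encodes a nuclease-fold protein of the processome, and CEBPZ (-0.59, SE 0.19), a large subunit assembly gene. At an unadjusted limma p below 0.05 there were 1 higher and 1 lower of the small subunit genes and 5 lower of the large subunit genes. At this level 11.5% of all tested rows were higher and 6% lower in KO cells. The same shares stand beside the counts at this level in the lists below.

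Of 12 other RNA polymerase I genes 0 were called and 1 was lower at an unadjusted limma p below 0.05. That gene was TAF1D, which encodes a subunit of the selectivity factor SL1, with 9.96, 6.29 and 7.44 FPKM in KO 1 to 3, against 13.31, 15.52 and 15.44 FPKM in the vector controls (log2 fold change -0.84, SE 0.19, limma adjusted p = 0.0990). The highest of them was TAF1B, at 0.38. A list of 15 genes held the RNA exosome, which trims rRNA precursors, and related factors such as the exonuclease gene XRN2. Of these 15 genes 0 were called and 0 passed at an unadjusted limma p below 0.05. Their log2 fold changes ran from -0.28 for the joined row of EXOSC7 to 0.43 for EXOSC2. Their medians by library were -0.02, -0.02 and 0.12 in KO 1 to 3, against 0.30, -0.14 and -0.14 in vector control 1 to 3, so vector control 1 was the highest here too but KO 1 was not the lowest.

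The 79 cytosolic ribosomal protein rows differed from the members in that vector control 1 was their lowest library, with medians of 0.04, -0.08 and -0.08 in KO 1 to 3 and -0.19, 0.13 and 0.18 in vector control 1 to 3. Of them 0 were called and 2 were lower at an unadjusted limma p below 0.05, with log2 fold changes from -0.54 for RPS21 to 0.36 for RPLP0. Between the groups their median log2 fold change was -0.12, with 56 rows below 0 and 23 above. That was near the median of -0.15 over the members, so a lower side in KO cells was not particular to the members. Ribosomal protein genes have many processed pseudogenes, which affects their values as described for NPM1. MYC itself had 12.98, 14.23 and 6.34 FPKM in KO 1 to 3, against 18.20, 39.54 and 17.44 FPKM in the vector controls (log2 fold change -1.07, SE 0.39, limma adjusted p = 0.234). Every KO library lay below every vector control for MYC, as in 8.35% of all tested rows. The highest library of MYC was vector control 2, not vector control 1. The part of MYC in the values of the members was not tested.

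**Figure D4:**
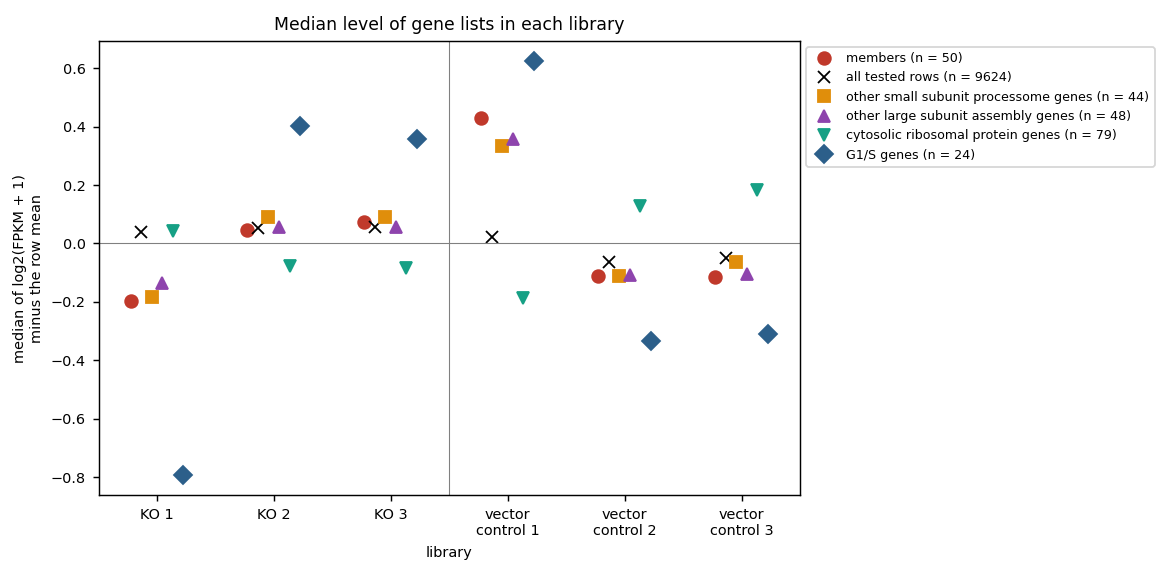
Median of log2(FPKM + 1) minus the row mean for each gene list in each library, with the KO libraries left of the line. The members (circles) are at -0.20 in KO 1 and 0.43 in vector control 1, the G1/S genes (diamonds) are further out in the same directions, and the ribosomal protein genes (downward triangles) are lowest in vector control 1.

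Features that the list was not built on were read from the reference annotation. In GENCODE 29, 8 members contain snoRNA genes on their own strand, 26 in all: NCL, POLR1C, NOP56, NOP58, DKC1, WDR43, GNL3 and PPAN. The median log2 fold change was -0.15 over these hosts and -0.15 over the other 42 members. In NOP56, NOP58, DKC1 and GNL3 a snoRNA overlaps an annotated exon. An exon is overlapped by a gene on the other strand in 19 members, with a median of -0.11, against -0.19 in the other 31. Besides UBTF, the 19 include NHP2, GNL2 and GNL3, whose groups did not overlap, and the limit given for UBTF holds for them too.

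Promoter windows of RefSeq on GRCh38.p14, from 250 bases before to 50 bases after the gene start, were available for 43 of the 50 members. They were searched on both strands for the E-box CACGTG, the sequence bound by MYC with its partner MAX, for the GC box GGGCGG and for the ETS core CCGGAAG. The E-box was present in 15 of 43 member windows (34.9%), against 10.7% of the 7074 windows of tested rows and 7.43% of all 27305. The GC box was in 69.8%, against 73.3% and 44.6%, and the ETS core in 39.5%, against 21.4% and 10.7%. Of the 17 E-boxes, 15 began within 100 bases of the gene start. A match is a description of the letters and not a binding site. The median log2 fold change was -0.14 for members with an E-box and -0.15 for those without. It was -0.15 with and 0.09 without a GC box, and -0.15 with and 0.00134 without an ETS core.

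Stretches from 120 bases before to 30 bases after the start are shown for 5 members, 5′ to 3′ on the gene's strand, with every searched motif in capitals. FBL (chr19:39846350-39846499, minus strand), GNL2 (chr1:37595908-37596057, minus strand) and WDR43 (chr2:28894547-28894696, plus strand) are the members with separated groups that hold an E-box, 3 of the 9 such members with a window. POLR1B (chr2:112541916-112542065, plus strand) and UBTF (chr17:44220853-44221002, minus strand) are shown as polymerase I genes with a low and the highest fold change.
FBL: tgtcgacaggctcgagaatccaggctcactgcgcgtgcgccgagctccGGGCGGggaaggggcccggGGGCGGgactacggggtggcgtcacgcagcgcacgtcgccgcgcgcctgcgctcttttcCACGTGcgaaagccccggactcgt
GNL2: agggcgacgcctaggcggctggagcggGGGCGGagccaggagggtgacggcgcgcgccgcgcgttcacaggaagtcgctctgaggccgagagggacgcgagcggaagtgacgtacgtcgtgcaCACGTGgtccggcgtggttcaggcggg
WDR43: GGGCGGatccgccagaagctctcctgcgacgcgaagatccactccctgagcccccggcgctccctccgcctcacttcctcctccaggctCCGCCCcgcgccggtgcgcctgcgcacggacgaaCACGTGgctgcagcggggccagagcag
POLR1B: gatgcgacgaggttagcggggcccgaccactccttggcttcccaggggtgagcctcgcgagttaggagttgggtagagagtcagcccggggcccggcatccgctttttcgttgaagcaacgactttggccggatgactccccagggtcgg
UBTF: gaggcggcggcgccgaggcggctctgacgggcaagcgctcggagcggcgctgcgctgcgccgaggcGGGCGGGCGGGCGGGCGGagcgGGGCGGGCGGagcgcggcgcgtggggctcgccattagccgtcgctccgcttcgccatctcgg
The E-box begins 7 bases after the start of FBL and 4 bases after that of GNL2 and of WDR43, counting the first transcribed base as 1. The stretch shown for POLR1B holds none of these motifs, although its full window holds a GC box and an ETS core but no E-box. The stretch shown for UBTF holds 6 overlapping or neighbouring GC boxes and no E-box.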

How the data were processed

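The authors deposited 1 table of FPKM, 1 column per library, with values to 2 decimals. The submitters' processing notes list HISAT2, cutadapt, FastQC and the build hg19. For tool versions, annotation, FPKM tool and strand setting, the answer is not given in the sources used here. Each FPKM is scaled to library size and gene length. No whole-read steps were found in low values of short genes (best concentration 0.406, where exact multiples give 1), so depth is unknown and the 3 libraries per group set the precision. An exact 0 can be an unmeasured value: all 13 mitochondrially encoded rows were at 0.

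Rows with at least 1 FPKM in at least 3 libraries were fitted with limma 3.58.1 in R 4.3.3 on log2(FPKM + 1), KO minus vector control, with a mean-variance trend and no covariates. The fit was tested on simulated data with independent noise in each row. That simulation held no departure shared by the rows of a library, so it cannot vouch for the fit where KO 1 and vector control 1 stand apart. Fold changes on this scale understate the change of low genes. The members and lists were chosen with earlier results of these data known. Values in every library are given for NCL, NPM1, FBL, DKC1, UBTF and POLR1A, the 5 highest and 5 lowest fold changes, members with separated groups and the 3 with the widest range on that log2 scale, 22 in all. NOLC1, LYAR, NOP56, NOP10 and UTP20 were named after their values were seen. So were the non-members KRT8, KRT18, KRT19, COL1A1, COL1A2, COL3A1, PDGFRA, LUM, CDH5, PECAM1, LYZ, CD14, CD68 and PCNA. The main fit did not pair libraries by replicate number, and matched promoters come from RefSeq on GRCh38.p14.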

Additional observations from a re-analysis of the deposited data

How the results depend on the processing

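The 0 calls among the members held with pseudocounts of 0.1 and 5, with no filter, with a filter at 5 FPKM (which left 43 members), with median scaling, quantile normalization and no mean-variance trend, and without joined rows. Robust limma with array weights called 13 members higher and 5 lower (4020 rows in all, 41.8%). The covariate of histone share called 3 lower (611 rows), an adjusted p below 0.1 called 1 lower, DDX10 (274 rows), and leaving out KO 1 and vector control 1 together called 15 higher and 4 lower (3575 rows) and moved the median of the members to 0.13. Leaving out 1 library gave 0 to 3 members higher and 0 to 2 lower. These calls came when vector control 1 was left out (UTP3, NOL9 and UBTF higher, DDX10 and POLR1B lower, where 8.74% and 5.07% of all tested rows were called). Over all rows, leaving out KO 3 gave 25 calls and leaving out KO 2 gave 29. Leaving out vector control 2 or 3 gave 39 each, and leaving out vector control 1 gave 1329. It was 241 without a filter and 59 with a filter at 5 FPKM. The cause of these changes was not tested. Median scaling moved the median of all rows to -0.0013 and that of the members to -0.23.

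With the replicate block, 7 rows and 0 members were called, against 130 rows without it. Same-numbered libraries did not deviate together (correlations of -0.374, -0.153 and -0.264). KO 1 and vector control 1 departed in opposite directions, so a weaker pairing beneath these departures could not be seen in this check. Of 373 values of the 22 named members under the alternatives, 339 kept their sign and their side of the threshold, 27 were called and 7 changed sign without a call.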
